A study of Xenopus laevis with 4 samples.

Results

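Goosecoid (gsc), otx2 and crx are homeobox genes of the head organizer, and their RNA was followed across 4 explants of the Xenopus laevis gastrula. The members were chosen by gene symbol: a probe set belonged to the group when the platform annotation gave it 1 symbol and that symbol was gsc.L, gsc.S, otx2.L, otx2.S, crx.L or crx.S. This gave 9 probe sets of the 15491 that are not array controls, and every one of the 6 genes had at least 1. Xenopus laevis is allotetraploid, and the suffixes .L and .S mark the homeologous copies on its long and short chromosome sets. A further probe set, which the annotation assigns to both goosecoid copies, carries 2 symbols and was left out.

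All explants came from embryos at stage 10, when gastrulation starts, and no treatment or mutation is given for any of them. They were the dorsal marginal zone, which is the equatorial sector that holds the Spemann organizer, the vegetal explant from the yolk-rich pole, the ventral marginal zone opposite the organizer, and the animal cap of prospective ectoderm. Each explant was measured on 1 array. The number of embryos behind an explant is not stated. With 1 array per explant there is no error between samples and no test, so each difference below compares arrays and has no replicate check.

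Goosecoid encodes a homeodomain repressor and is a classical marker of the organizer, where nodal signals and maternal Wnt signalling act together on its promoter. Its protein is known to repress ventral and posterior mesodermal genes, among them wnt8a, brachyury (tbxt) and the ventx genes. Otx2 is needed for the forebrain and midbrain and is already active in the anterior endomesoderm of the gastrula. Crx belongs to the same otx family, is best known from photoreceptors and the pineal gland, and was first described in Xenopus under the name otx5. The homeodomains of all 3 share a lysine at the position that reads the bases next to the homeodomain core site, the class named after the fly protein Bicoid.

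The explants carried the markers of their labels. Values are the authors' scaled signals, and a signal at or below 24.7, the 20th percentile of all values, is treated as a floor. The dorsal mesoderm markers (8 probe sets, among them those of chrd, nodal3, foxb1 and admp) summed to 9645 in the dorsal marginal zone and 4009 vegetally, against 577 in the ventral marginal zone and 230.2 in the animal cap, where 6 of the 8 lay at the floor. The 13 endoderm probe sets summed to 6935 in the dorsal marginal zone and 35842 vegetally, against 6252 in the ventral marginal zone and 211 in the animal cap, where 8 lay at the floor. Organizer markers were therefore present on the vegetal array, and endodermal markers on both marginal zone arrays. The 13 ventral probe sets summed to 3251 in the dorsal marginal zone and 5926 vegetally, against 8533 in the ventral marginal zone and 3176 in the animal cap. Ventral markers were thus also present on the vegetal array. The 11 ectodermal probe sets summed to 3265 dorsally and 10142 ventrally, beside 1512 in the vegetal explant and 17930.2 in the animal cap. The signal of these markers thus also differed between the marginal zones, in the direction opposite to the members. Whether it reflects the amount of ectoderm in each explant was not tested. What part the cut between explants has in the member values was not tested. In such pieces of tissue, more expressing cells and more RNA per cell cannot be told apart.

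Goosecoid was the most restricted of the 3 genes. Both gsc.L probe sets were bright in the dorsal marginal zone and the vegetal explant and near or below the floor elsewhere. The first gsc.L probe set reached 1018 in the dorsal marginal zone and 410.1 vegetally, against 4.98 in the ventral marginal zone and 3.45 in the animal cap. The second had 3769.5 in the dorsal marginal zone and 1553 vegetally, against 53.6 in the ventral marginal zone and 2.45 in the animal cap. Both thus gave the same order of explants, with the last 2 at the floor for the first probe set and only the animal cap there for the second.

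The gsc.S probe set also separated the dorsal and vegetal explants from the others, but it stayed above the floor on every array. Its signal was 2662 in the dorsal marginal zone and 2594 vegetally, against 192 in the ventral marginal zone and 51.3 in the animal cap. The dorsal and vegetal signals were nearly equal here, unlike those of gsc.L. Of the signal summed over the 4 explants, with low values raised to the floor, the dorsal marginal zone held 68.9% and 69.8% for the gsc.L probe sets and 48.4% for gsc.S. The homeologs are close in sequence and the probes may bind RNA of both copies, which was not tested.

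Otx2 followed the same order at its brighter probe set. That otx2.L probe set reached 2707 in the dorsal marginal zone and 2638 vegetally, against 264 in the ventral marginal zone and 135 in the animal cap. The second otx2.L probe set was far dimmer, with 178 in the dorsal marginal zone and 147 vegetally, against 11.5 in the ventral marginal zone and 5.43 in the animal cap. Despite their different brightness, both put the dorsal and vegetal signals close together and the other explants far below. The only otx2.S probe set had 137 in the dorsal marginal zone and 79.4 vegetally, against 6.72 in the ventral marginal zone and 13.99 in the animal cap. It never reached 147, the median of all values, which a probe set had to reach in the brighter of 2 explants to enter a comparison.

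Crx differed from gsc.S and otx2.L in its lowest explant. The crx.L probe set reached 1648 in the dorsal marginal zone and 821 vegetally, against 131 in the ventral marginal zone and 177 in the animal cap. The brighter crx.S probe set had 1109.7 in the dorsal marginal zone and 524 vegetally, against 67.0 in the ventral marginal zone and 159 in the animal cap. Both copies were thus lowest in the ventral marginal zone, whereas gsc.S and the brighter otx2.L probe set were lowest in the animal cap. Between these explants, each on 1 array, crx.L differed only 1.35-fold and the brighter otx2.L probe set 1.96-fold. The second crx.S probe set was dim throughout, with 25.5 in the dorsal marginal zone and 48.1 vegetally, against 3.53 in the ventral marginal zone and 11.0 in the animal cap. It and otx2.S are the 2 members that did not reach the filter on any array, and the other 7 did.

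**Figure D1:**
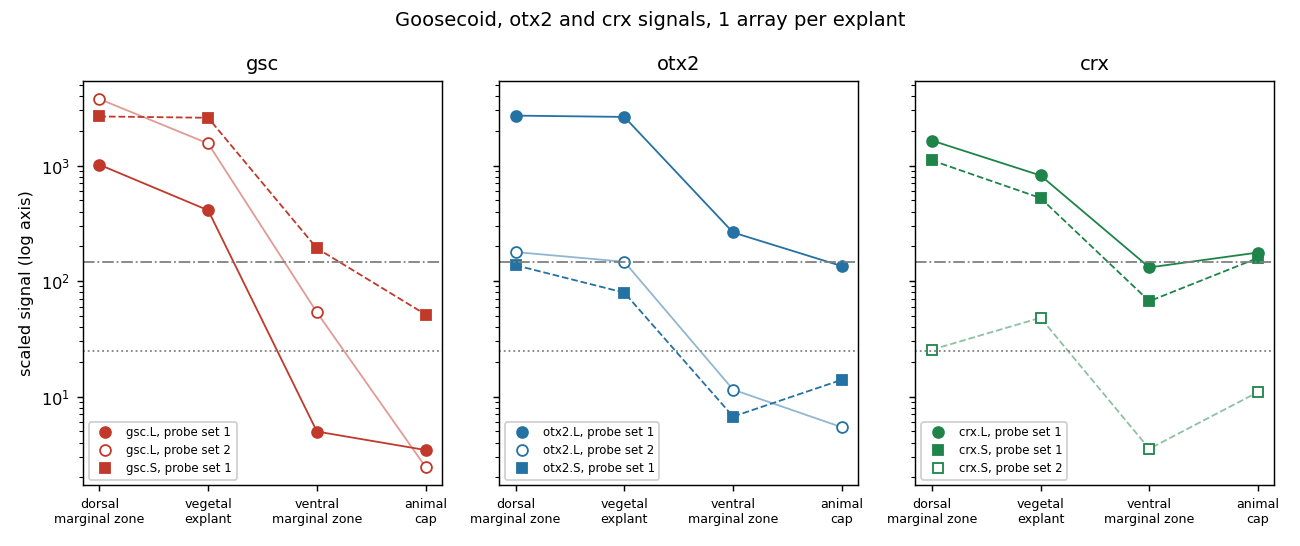
Scaled signal (log axis) of the 9 member probe sets on the dorsal marginal zone, vegetal, ventral marginal zone and animal cap arrays, with 1 panel per gene, circles for .L copies, squares for .S copies and open symbols for second probe sets. The dotted line is the floor of 24.7 and the dash-dotted line the filter at 147; the 7 probe sets that reached the filter are all lower on the ventral than on the vegetal array.

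The first comparison set the sector with the organizer, the dorsal marginal zone, against the ventral one without it. A probe set was called when the floored signals differed 2-fold or more. All 7 member probe sets that entered were higher dorsally, and none ventrally, where 1.38% of the 8094 probe sets entering were called higher dorsally and 1.17% higher ventrally. Since a member enters only through the explant where it is bright, the 7 are not all members. The 2 that did not enter had dorsal signals of 137 for otx2.S and 25.5 for crx.S, with both ventral signals under the floor.

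By size, goosecoid led. The second gsc.L probe set was 70.3-fold higher in the dorsal than in the ventral marginal zone and ranked 2 of 8094 at this floor, after a chordin (chrd.1.S) probe set. The first gsc.L probe set was at least 41.2-fold higher, with the ventral side at the floor. The crx.S probe set followed at 16.6-fold, gsc.S at 13.8-fold, crx.L at 12.6-fold and the brighter otx2.L probe set at 10.3-fold, while the dimmer one was at least 7.22-fold higher. All 7 ranked between 2 and 20. These ranks depend on the floor, since values with a side at the floor are lower bounds: with the floor at the 10th percentile the first gsc.L probe set was at 6.91 on the log2 scale, above the 6.14 of the second.

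As a measure of how far arrays differ at a like brightness, each member was set beside the probe sets whose brighter signal lay within 2-fold of its own. For gsc.S these were 1770 probe sets, and the central 95% of their log2 differences between the dorsal and ventral marginal zones ran from -0.53 to 0.50, against 3.79 for gsc.S. For the brighter otx2.L probe set 1761 probe sets gave -0.51 to 0.53, against its own 3.36. For crx.L 2466 gave -0.60 to 0.54, against 3.65. These ranges hold real regional differences as well as noise and stand in for no replicate.

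The vegetal explant and the animal cap were compared for the other axis of the embryo. Here 6 member probe sets entered and all 6 were higher vegetally, where 11.7% of 8614 probe sets were called higher vegetally and 9.14% higher in the cap. The goosecoid copies again held the largest values. The signal of gsc.S was 50.5-fold higher in the vegetal explant than in the animal cap, and the gsc.L probe sets were at least 62.9-fold and at least 16.6-fold higher. The brighter otx2.L probe set was 19.6-fold higher, crx.L 4.65-fold and crx.S 3.30-fold. The dimmer otx2.L probe set, at 146.98 vegetally, fell just short of the filter and did not enter.

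On this axis goosecoid lay above the central 95% of like-level probe sets, otx2.L just above it and crx inside it. The log2 difference was 5.66 for gsc.S, where the central 95% ended at 4.12, and 4.29 for otx2.L, where it ended at 4.11. It was 2.22 for crx.L and 1.72 for crx.S, both inside ranges that ended at 2.49 and 2.39. Of the like-level probe sets, 47 of 1984 were at or above otx2.L and 108 of 3598 at or above crx.L. The otx2.L and crx.L values thus lay near the cut on either side, and the cut does not separate them clearly. The vegetal and cap arrays differed far more than the marginal zones over all probe sets, with robust SDs of 0.66 and 0.24 on the log2 scale, so that a given fold says less here.

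Few of all probe sets shared both features, but most of those higher dorsally did. Among the 8851 probe sets with a signal at the filter on any array, 84 were 2-fold or more higher both in the dorsal than in the ventral marginal zone and in the vegetal explant than in the animal cap, which is 0.949%. Of the 8851, 131 were 2-fold or more higher in the dorsal than in the ventral marginal zone, and the 84 are part of these 131. The 7 members that reached the filter were among these 84. They reached it through explants where they were bright, the dimmer otx2.L probe set only in the dorsal marginal zone. Of the 18 probe sets in this set of 8851 that were 8-fold or more higher in the dorsal than in the ventral marginal zone, 6 belonged to the members.

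**Figure D2:**
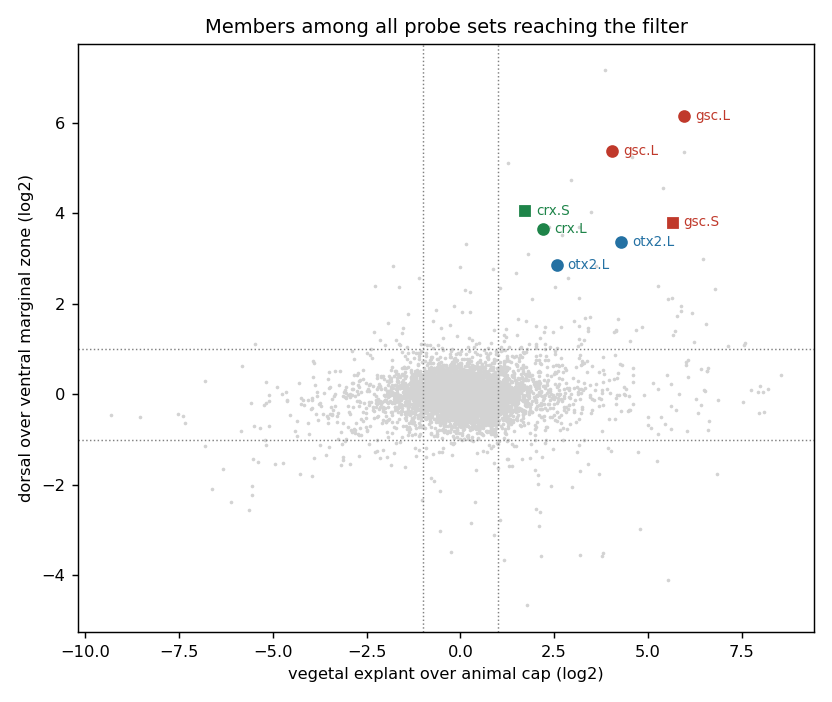
Each point is 1 of 8851 probe sets that reached the filter on any array, placed by its log2 difference of the vegetal explant over the animal cap (horizontal) and of the dorsal over the ventral marginal zone (vertical); dotted lines mark 2-fold. The coloured members (circles .L, squares .S) all lie in the upper right, with gsc to the right of crx.

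Set against the animal cap, the dorsal marginal zone was higher for all 7 entering probe sets, where 3.61% of 8118 probe sets were called higher dorsally and 2.25% in the cap. The folds were 51.9 for gsc.S, at least 153 and at least 41.2 for gsc.L, 20.1 for the brighter otx2.L probe set and at least 7.22 for the dimmer, 9.33 for crx.L and 6.99 for crx.S. Each of these lay above the central 95% of like-level probe sets, whose upper ends ran from 0.94 to 1.96 on the log2 scale. The 6 comparisons reuse the same 4 arrays and are not independent of each other.

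The vegetal explant was also above the ventral marginal zone for all 6 entering probe sets, where 9.27% of 8574 probe sets were called higher vegetally and 7.86% ventrally. The second gsc.L probe set was 29.0-fold higher, gsc.S 13.5-fold, the brighter otx2.L probe set 10.0-fold, crx.S 7.82-fold and crx.L 6.26-fold, and the first gsc.L probe set at least 16.6-fold. All 6 lay above the like-level ranges, which ended between 1.66 and 2.13 on the log2 scale. A drop below the vegetal explant in the ventral marginal zone was thus shared by gsc, otx2.L and crx.

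The dorsal marginal zone and the vegetal explant, the top 2 explants for every member that reached the filter, differed less. Of 7 entering probe sets, 4 were 2-fold or more higher in the dorsal marginal zone and none in the vegetal explant, where 7.89% and 9.83% of 8595 probe sets were called. The gsc.L probe sets were 2.48-fold and 2.43-fold higher dorsally, crx.S 2.12-fold and crx.L 2.01-fold, just past the threshold. After quantile normalization crx.L fell short of 2-fold (0.996 on the log2 scale), which left 3 calls, beside 9.12% of 8483 probe sets. The ratio was 1.03 for gsc.S, 1.03 for the brighter otx2.L probe set and 1.21 for the dimmer one. All 7 values lay inside the central 95% of like-level probe sets, so none of them stood apart from the general difference between these arrays.

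The homeologs of goosecoid thus gave different ratios of the dorsal marginal zone to the vegetal explant, and those of crx nearly the same one. On the log2 scale gsc.L exceeded gsc.S by 1.26 in this difference, and crx.L fell short of crx.S by 0.08 (a difference of -0.078). The dim second crx.S probe set did not enter and ran the other way, with 25.5 dorsally and 48.1 vegetally. Among 571 pairs of .L and .S copies measured in this comparison, 48 differed by more than the goosecoid pair, and the 95th percentile of the absolute difference was 1.48. In the dorsal over ventral difference gsc.L exceeded gsc.S by 1.96, and 1 of 545 pairs differed by more. That value rests partly on the floor, since the first gsc.L probe set lay below it ventrally. Whether the dim ventral and cap signals of gsc.S come from gsc.S RNA or from other RNA on its probes was not tested.

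The ventral marginal zone and the animal cap, where the members were lowest, separated gsc.S from crx.S. Only 4 member probe sets entered. The gsc.S signal was 3.74-fold higher in the ventral marginal zone, where 3.24% of 8082 probe sets were called in that direction, and crx.S was 2.37-fold higher in the animal cap, where 1.44% were. On the log2 scale gsc.S was at 1.90, above a like-level range that ended at 1.47, and crx.S at -1.25, below one that began at -0.95. The brighter otx2.L probe set was 1.96-fold higher in the ventral marginal zone and crx.L 1.35-fold higher in the cap, both within their ranges. With the arrays scaled to the hybridisation controls, otx2.L passed 2-fold at a log2 difference of 1.13.

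**Figure D3:**
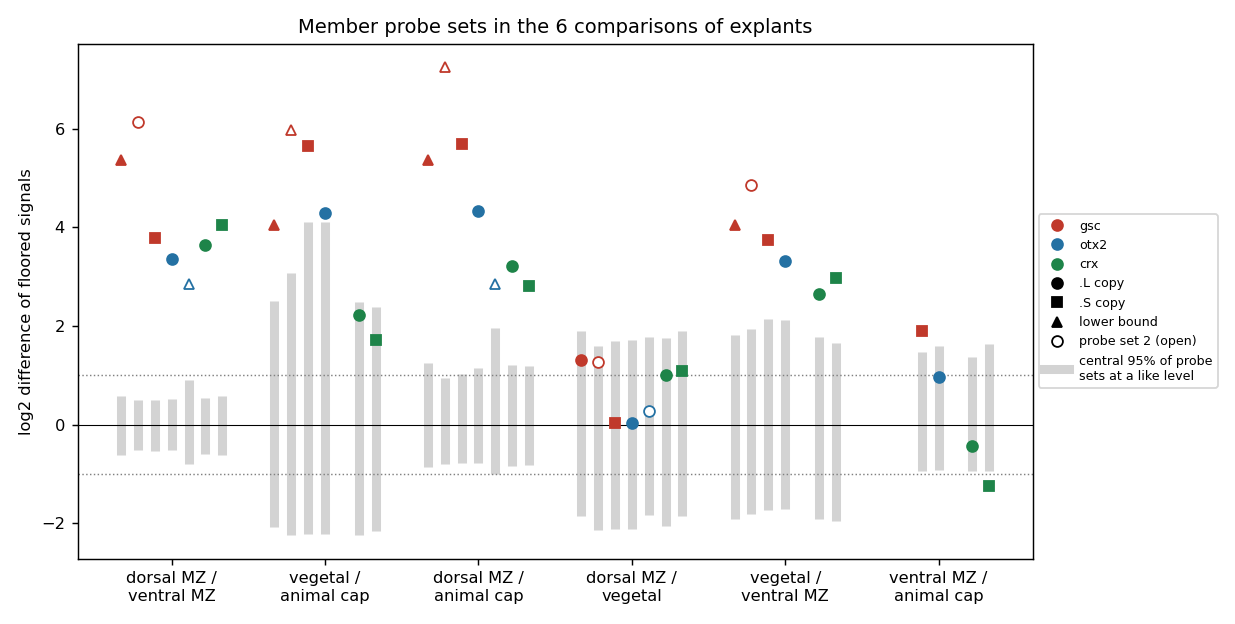
Log2 difference of floored signals for the 7 member probe sets that entered at least 1 of the 6 comparisons (horizontal axis), with triangles for lower bounds and grey bars for the central 95% of probe sets of like brightness; dotted lines mark 2-fold. All members lie above the bars for the dorsal over the ventral marginal zone and inside them for the dorsal marginal zone over the vegetal explant, and gsc.S and crx.S lie on opposite sides of 0 for the ventral marginal zone over the animal cap.

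The genes whose levels over the explants were most like each member were found by the root mean square difference of centred log2 profiles over the 4 arrays, among 4989 genes. With 4 points this is a description only. Nearest to goosecoid (mean of both copies) were the nodal-related gene nodal3.1.L at 0.41, admp.S, which encodes a BMP-like ligand of the organizer, at 0.47, the Wnt antagonist genes frzb.L at 0.77 and dkk1.S at 0.95, and tmem150b.L at 1.08. For comparison, each goosecoid copy lay 0.36 from their mean and otx2.L 0.95 from it. The nodal3.1.L signals were 1626 in the dorsal marginal zone and 1533 vegetally, against 40.1 in the ventral marginal zone and 5.07 in the animal cap. Both frzb.L, with 1629 dorsally and 2177 vegetally, and tmem150b.L, with 266 and 961, were higher vegetally than dorsally.

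Nearest to otx2.L, taken as the mean of its brighter and dimmer probe sets, was dkk1.S at 0.25. The gene dkk1.S encodes an inhibitor of Wnt signalling needed for head formation in Xenopus. It had 322 in the dorsal marginal zone and 241 vegetally, against 3.86 in the ventral marginal zone and 27.2 in the animal cap. It was followed by vepp1.L at 0.55, the forkhead gene foxb1.S at 0.60, admp.S at 0.65 and the mix-family homeobox gene bix1.2.S at 0.65. Among these, vepp1.L (108 dorsally and 220 vegetally) and bix1.2.S (224 and 419) were higher vegetally. Nearest to crx was foxb1.S at 0.28, with 729 in the dorsal marginal zone and 465 vegetally, against 85.6 in the ventral marginal zone and 134 in the animal cap. After it came dkk1.S at 0.42, the Notch-pathway gene hes7.1.L at 0.43, lrig3.S at 0.45 and the Frizzled receptor gene fzd8.S at 0.78. For hes7.1.L and fzd8.S, and for admp.S above, these are means of probe sets that disagreed. The admp.S probe sets had 715 and 276 vegetally and 11.5 and 68.9 in the ventral marginal zone. The hes7.1.L probe sets had 310 and 646 in the dorsal marginal zone and 330 and 140 vegetally. One fzd8.S probe set had 1662 dorsally and 129 ventrally in the marginal zones, and the other 389 and 415. Like crx, foxb1.S was lowest in the ventral marginal zone.

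Between the members themselves, crx.L and crx.S were the closest pair at 0.29. The pair otx2.L and crx.L lay at 0.47, otx2.L and crx.S at 0.72 and gsc.L and gsc.S at 0.73. The pair gsc.S and otx2.L lay at 0.89, and the goosecoid and crx copies were farthest apart, between 1.27 and 1.49. The otx2.L profile averages its brighter probe set with the dimmer one, whose ventral and cap values were set to the floor. Its distances depend on this averaging, and those of the brighter probe set alone are not given. Whether otx2.L lies nearer to crx or to goosecoid therefore cannot be read from them.

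**Figure D4:**
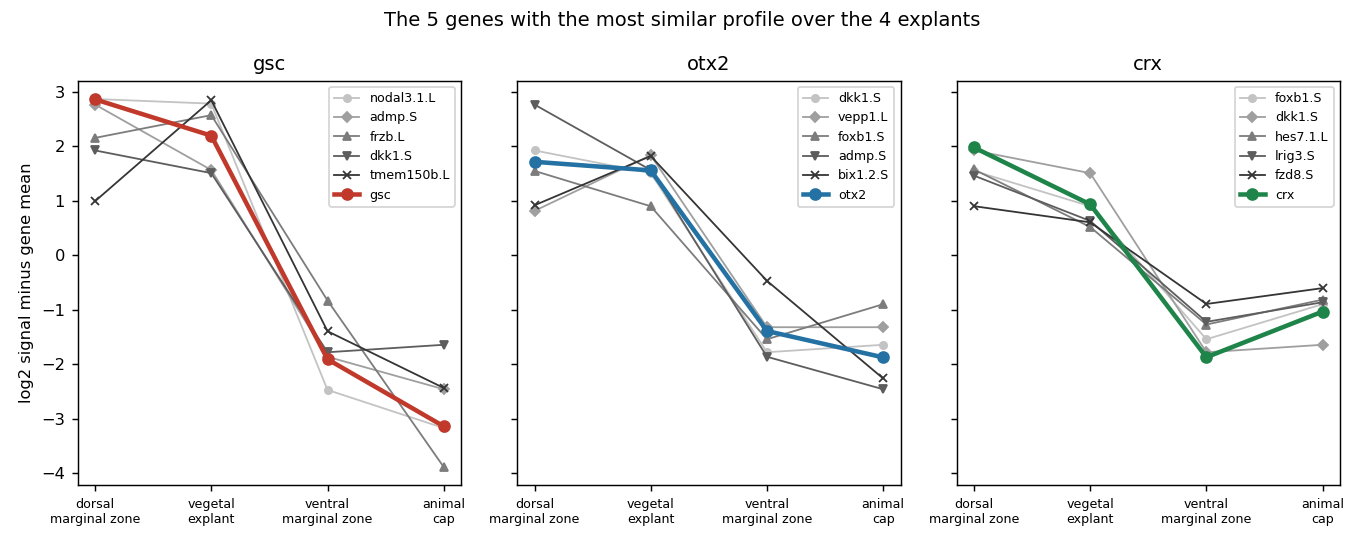
Log2 signal minus the mean of the gene over the 4 arrays (vertical axis) for goosecoid, otx2 and crx (coloured, mean of the copies that reached the filter) and for the 5 genes nearest to each (grey). The crx panel turns up from the ventral marginal zone to the animal cap, as foxb1.S does, while the goosecoid panel keeps going down.

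The surrounding network was described by gene lists built from known functions, and per gene rather than per probe set. The lists were chosen with earlier results of these data known, so their counts describe the arrays and give no independent support. In the head organizer list, which holds secreted antagonists and transcription factors of the organizer, 10 of 12 entering genes passed 2-fold in favour of the dorsal marginal zone and none in favour of the ventral, with a median log2 difference of 2.90. Over all 4649 genes 1.33% were called higher dorsally and 1.16% ventrally, with a median of -0.01. Examples with a like dorsal excess were chrd.1.S, the gene of a BMP antagonist, at least 143-fold and at least 34.6-fold higher on its probe sets, nodal3.1.L at 40.5-fold, admp.S at least 37.7-fold and 16.3-fold, and dkk1.S at least 13.0-fold. With the arrays scaled to the hybridisation controls 9 passed dorsally, beside 0.894% of 8276 probe sets, and the median was 2.77. The median also rests partly on the floor: it was 3.04 with the floor at the 10th percentile and 2.59 with the 30th. The list held 18 genes on the array, and those that did not enter are not described by these counts.

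The same organizer genes differed among themselves in the ratio of the dorsal marginal zone to the vegetal explant. The ratio was 14.3 and 9.79 for the chrd.1.S probe sets, 1.30 and 4.06 for those of admp.S, 1.34 for dkk1.S and 1.06 for nodal3.1.L. The gsc.L ratios of 2.48 and 2.43 lay between these, and the gsc.S and otx2.L ratios of 1.03 beside that of nodal3.1.L. Of 15 organizer list genes entering this comparison, 4 were higher dorsally and 2 vegetally, beside 6.2% and 8.71% of 4868 genes. The 2 were both copies of the homeobox gene hesx1, named after their values were seen.

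A list of goosecoid regulators holds nodal and related ligands, T-box, Mix and LIM factors, and cofactors and effectors of the nodal and Wnt pathways. Not all of them are activators: tcf7l1 is known as a repressor of Wnt targets. Of 15 entering genes, 1 passed 2-fold in favour of the dorsal marginal zone and none in favour of the ventral, beside 1.33% and 1.16% of all 4649 genes, and the median was 0.15. With the arrays scaled to the hybridisation controls 0 passed dorsally and 1 ventrally, and the median was -0.05. Over all probe sets that scaling moved the median from -0.01 to -0.22, with 0.894% called higher dorsally and 2.24% ventrally. The LIM homeobox gene lhx1.L was 2.01-fold higher dorsally (198 dorsally and 98.7 ventrally), and the T-box gene eomes.L 1.81-fold (3374 and 1860.5). The gene tcf7l1.L was 1.72-fold higher dorsally (1981 and 1152), and mixer.S was 1.74-fold higher ventrally (173 dorsally and 301 ventrally). The organizer factor genes sia1.L and sia2.S, which act directly on the goosecoid promoter, did not enter: sia1.L had 35.6 in the dorsal marginal zone and 100.1 vegetally, against 1.94 in the ventral marginal zone and 4.68 in the animal cap, and sia2.S stayed under the floor on every array. These 2 were named after their values were seen.

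More of these genes were called between the poles. In the comparison of the vegetal explant with the animal cap, 10 of 17 entering genes were higher vegetally and 3 in the cap, with a median of 3.19, where 10.8% and 7.28% of 4892 genes were called. The floored folds of the 10 ran from at least 8.83 for the ligand gene nodal1.L to 77.5 for the ligand gene gdf1.S. Several of them are lower bounds, among them mixer.S at 66.0 or more, so gdf1.S need not be the largest. The signal of eomes.L was 9.13-fold higher vegetally, and that of the ligand gene gdf3.S was 57.2-fold higher, beside 50.5-fold for gsc.S. The 3 higher in the cap were the cofactor genes ldb1.S at 4.06-fold and ldb1.L at 2.78-fold and the Smad gene smad4.L at 2.84-fold. A second smad4.L probe set missed the filter and ran the other way, with 106 vegetally and 88.2 in the cap. Apart from eomes.L and mixer.S, these genes were named after their values were seen.

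The ventral and mesodermal list, several of whose genes goosecoid is known to repress, ran opposite to the members between the marginal zones. Of 15 entering genes 12 were higher ventrally and none dorsally, with a median of -1.36, beside the 1.16% of all genes. The median is the value of ventx1.1.L, named after its value was seen. Its probe sets disagreed in size, at 5.82-fold and 1.13-fold higher ventrally. The homeobox gene ventx3.2.S had 34.0 dorsally and 579.6 ventrally, a 17.0-fold ventral excess. The secreted factor gene szl.S had 34.1 dorsally and 433 ventrally, the homeobox gene evx1.L had 36.8 dorsally and 434 ventrally, and the BMP pseudoreceptor gene bambi.L had 29.5 dorsally and 329 ventrally. This list overlaps the ventral markers, as the organizer list overlaps the dorsal ones. The 3 genes under 2-fold, named after their values were seen, were ventx2.1.L at -0.85, tbxt.S at -0.39 and bmp7.2.L at -0.38 on the log2 scale. Against the animal cap the list did not run opposite to the members. Of 12 genes entering there, 5 were higher vegetally and 1 in the cap (median 0.68), beside 10.8% and 7.28% of 4892 genes. For the dorsal marginal zone over the cap, 3 of 10 were higher dorsally and 2 in the cap (median -0.05), beside 3.46% and 2.04% of 4647 genes.

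In the vegetal explant, where the members were high, most genes of the ventral and mesodermal list were below their ventral marginal zone signal. Of 15 entering genes, 1 was 2-fold or more higher vegetally and 8 ventrally, with a median of -1.14, beside 8.52% and 6.47% of 4885 genes. The 1 was ventx3.2.S, with 1959 vegetally against 579.6 in the ventral marginal zone. The other gene with a higher vegetal signal was wnt8a.L, named after its value was seen, with 2842 vegetally against 2416 in the ventral marginal zone. Between the dorsal marginal zone and the vegetal explant, 2 of 12 entering genes were higher dorsally and 5 vegetally. The median there was -0.72, beside 6.2% and 8.71% of 4868 genes called. The labels give no dorsal or ventral side for the vegetal explant, and these values do not say whether the genes share cells.

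Other homeobox genes of the paired class were counted in the same way. Of 10 entering relatives 1, bix1.2.S, passed 2-fold dorsally (224 dorsally and 85.6 ventrally) and none ventrally, beside 1.33% and 1.16% of all genes, with a median of 0.14. With control scaling 1 passed dorsally and 1 ventrally, beside 0.894% and 2.24% of all probe sets, and the list median was -0.07. The median of all probe sets was then -0.22. The otx-family gene otx1.L had 1492 in the dorsal marginal zone and 6316 vegetally, against 939 in the ventral marginal zone and 672 in the animal cap. It was 1.59-fold higher in the dorsal than in the ventral marginal zone, against 10.3-fold for the brighter otx2.L probe set, and 4.23-fold lower in the dorsal marginal zone than in the vegetal explant, against a ratio of 1.03 for otx2.L. Its vegetal excess over the animal cap was 9.39-fold, between that of crx and that of otx2. The list held 22 genes on the array. It shares mix1 and mixer genes with the goosecoid regulator list and hesx1 genes with the head organizer list, and those lists share lhx1. Their counts are therefore not separate.

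**Figure D5:**
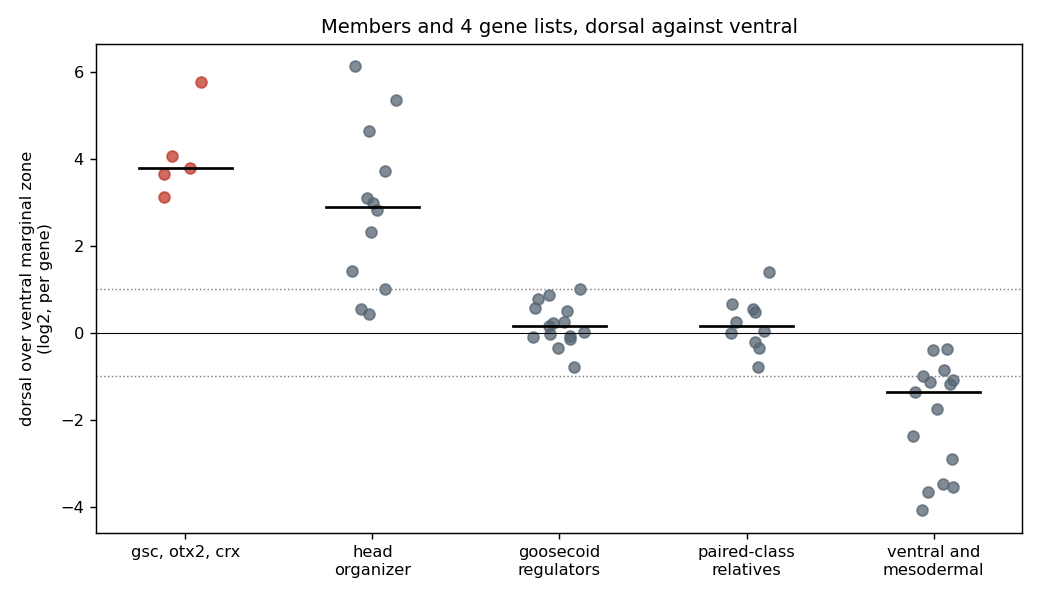
Log2 difference of the dorsal over the ventral marginal zone per gene (vertical axis) for the 5 member genes that entered and for the genes of 4 lists, with black bars at the medians and dotted lines at 2-fold. The members lie between 3.11 and 5.75 beside the upper head organizer genes, the goosecoid regulators and paired-class relatives lie near 0, and the ventral and mesodermal genes lie below 0. A gene shared by lists is drawn in each of them.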

How the data were processed

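The deposited table holds linear intensity signals for 15611 probe sets on 4 arrays. Per the labels' protocols, the Ovation system amplified and labelled 100 ng of RNA per explant; the summarisation software is not stated in the sources used here. The mean without the lowest and highest 2% was 500.1 on every array, so the authors' values were scaled per array, as read from the values. Array medians were 145, 158, 146 and 137 for the dorsal marginal zone, vegetal explant, ventral marginal zone and animal cap. The values are linear and were not centred per gene. Signals were raised to the 20th percentile (24.7) and put on the log2 scale. The number of arrays limits the precision. Of the probe sets, 120 controls were left out, 9304 had 1 symbol in the platform table, 195 several and 5992 none; 9227 identifiers matched the RefSeq table of Xenopus_laevis_v10.1 and 2 symbols were updated. A gene's value is the mean log2 signal of its entering probe sets. Named were all members, up to 4 genes per list by dorsal over ventral difference and the 5 most alike genes per family; exceptions are marked. Members and lists were chosen with earlier results of these data known. No test was run. The calling step was run on simulated data with large changes planted only in probe sets above the filter on every array. The simulated noise was smaller than the spread between these arrays. That run checks the code and does not exercise the floor or the edge of the filter. Python 3.11.15 with pandas 2.3.3 and matplotlib 3.10.9 was used.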

Additional observations from a re-analysis of the deposited data

How the results depend on the processing

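Scaling each array to its median, quantile normalization, scaling to the hybridisation controls, other floors, other filters, a 3-fold rule and counting genes were tried. Of 108 member counts recomputed, 102 stayed within 1.5 times the reported one, and no member difference of 2-fold or more changed its direction. Much of this agreement was built in. Changing the floor could not move a 2-fold call, because both other floors lay more than 2-fold below the filter. Every reported count of 0 stayed 0 under all settings and is included in the 102. The 102 therefore overstate how far the counts were tested. With a 3-fold rule, 0 of 7 members were higher in the dorsal marginal zone than in the vegetal explant, beside 3.26% of 8595 probe sets. By that rule 0 of 4 were higher in the animal cap than in the ventral marginal zone, beside 0.247% of 8082. In that last pair, 2 of 4 were higher ventrally with control scaling, beside 4.30% of 8288 probe sets. Without a filter 2 of 9 were, beside 3.41% of 15491. With the filter at the 60th percentile 1 member entered, and 0 were called either way, beside 2.74% ventrally and 1.24% in the cap of 6531 probe sets. With quantile normalization crx.L came to 0.996 on the log2 scale for the dorsal marginal zone over the vegetal explant, under 2-fold. Bounds moved with the floor: the first gsc.L probe set was at 6.91 dorsally over ventrally with the 10th percentile and at 4.51 with the 30th.

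Scaling an array by 1 factor shifts every measured difference alike, members included, and moves the counts of calls where many probe sets lie near 2-fold. With control scaling the median dorsal over ventral difference was -0.22 and the difference for gsc.S 3.59, and 74 probe sets were higher dorsally and 185 ventrally, against 112 and 95 as deposited. The vegetal and ventral calls then numbered 513 and 1121, against 795 and 674, and the ventral and cap calls 356 and 61, against 262 and 116. With median centring the vegetal and cap calls numbered 756 and 1099, against 1011 and 787, and the dorsal and vegetal calls 838 and 665, against 678 and 845. No paired analysis was possible because each explant has 1 array. With the floor at the 10th percentile, 3 of the 5 genes nearest to gsc and 3 of the 5 nearest to otx2 were the same genes.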

Other observations

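In the RefSeq gene table the .L copies of gsc, otx2 and crx lie on 1 chromosome and the .S copies on 1 other. Of the 12 protein-coding genes next to a member, 5 had a probe set with 1 symbol. Next to otx2.L, the exocyst gene exoc5.L had 2413 in the dorsal marginal zone and 2347 vegetally, against 2348 in the ventral marginal zone and 2567 in the animal cap. Next to otx2.S, peli2.S had 326 in the dorsal marginal zone and 306 vegetally, against 311 in the ventral marginal zone and 406 in the animal cap. Next to gsc.L, serpina1.L lay below the floor on every array, so that no pattern can be read from it, and next to gsc.S, serpina1.S lay between 31.5 and 85.7. The prss16.S probe sets next to crx.S lay between 49.7 and 101.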
